A study of Mus musculus with 8 samples.

Results

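The transcription factor NRF2, encoded by Nfe2l2, its inhibitor KEAP1 and 8 antioxidant genes that NRF2 is known to activate were followed in mouse liver with and without the E3 ubiquitin ligase HRD1. The 10 genes were taken by symbol from the count files: Nfe2l2, Keap1, Hmox1, Nqo1, Gclc, Gclm, Txnrd1, Srxn1, Gsr and Osgin1. They are 10 of 23337 genes in the files, and all 10 were among the 14328 genes with enough reads to be tested. Liver RNA of C57BL/6 mice aged 12 weeks was sequenced in 4 groups of 2 samples each. WT mice and HRD1Alb mice, labelled Hrd1-/-, were either fasted or refed for 4 h after an overnight fast. In HRD1Alb mice a Cre recombinase under the albumin promoter removes the floxed Hrd1 gene (Syvn1) from early liver development onwards. The study calls the deletion liver-specific and, in its supplement, hepatocyte-specific. Whether every other liver cell type keeps the gene is not given there. The study names floxed HRD1 mice without Alb-Cre as its controls and calls its control mice WT. Whether the sequenced WT livers came from such mice, and whether each sample was 1 animal, is not given in the sources used here, so the spread between the 2 samples of a group may be partly technical.

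NRF2 is made continuously and, in unstressed cells, is held by KEAP1 and marked for degradation by a cullin 3 ligase. Oxidants and electrophiles disable KEAP1, and NRF2 then enters the nucleus, pairs with a small MAF protein and binds antioxidant response elements in its target genes. BACH1 competes for many of these elements and is the main repressor of Hmox1. In liver the pathway is known for glutathione synthesis, the detoxification of quinones and drugs, and protection against oxidative injury. HRD1 itself has been described as another ligase for NRF2 protein. Read counts measure mRNA, so they report the targets' transcripts and not the amount of NRF2 protein.

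The promoters of Gclm and Srxn1, whose levels lay on opposite sides of WT in refed HRD1Alb liver, are shown first because both carry letters of the antioxidant response element. RefSeq promoters (GRCm38.p6, 250 bases before to 50 after a start) matched 7 of the 10 members with 9 promoters, and none was listed for Hmox1, Gclc or Gsr. The motif TGACNNNGC, read on both strands, stood in 4 of these 9 promoters (44.4%), in 20.9% of 86 promoters of other NRF2 pathway genes and in 12.4% of all 32851 promoters. The related form TGAGNNNGC, searched after the Srxn1 promoter had been seen, stood in 2 of 9 (22.2%) and in 17.6% of all. The 2 forms do not match the same letters, and a match describes the sequence only. The 250 bases before each start are printed 5′ to 3′ on the gene's strand, with matches in capitals. The upper line is chr3:122245307-122245556 and the lower line chr2:152105274-152105523, both on the plus strand.
Gclm: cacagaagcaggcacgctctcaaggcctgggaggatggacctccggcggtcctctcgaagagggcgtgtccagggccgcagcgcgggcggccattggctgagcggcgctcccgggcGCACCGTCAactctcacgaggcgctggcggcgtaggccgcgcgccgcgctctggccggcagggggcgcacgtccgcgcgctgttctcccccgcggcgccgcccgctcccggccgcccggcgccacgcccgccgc
Srxn1: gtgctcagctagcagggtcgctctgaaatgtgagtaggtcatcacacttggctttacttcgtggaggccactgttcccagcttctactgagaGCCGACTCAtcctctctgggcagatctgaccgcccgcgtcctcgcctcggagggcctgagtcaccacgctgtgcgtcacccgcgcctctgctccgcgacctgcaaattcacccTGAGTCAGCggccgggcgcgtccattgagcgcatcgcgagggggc
The Gclm match, of TGACNNNGC on the minus strand, began 134 bases before the start. The Srxn1 promoter held 3 matches, at 158 and 45 bases before and, outside the printed stretch, 28 bases after the start. Those before the start, printed in capitals, were of the form TGAGNNNGC, and that after it was of TGACNNNGC. Single matches also stood in the promoters of Nfe2l2, Osgin1 and 1 of the 3 Txnrd1 starts, while those of Keap1 and Nqo1 held neither form.

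Libraries held between 40210576 and 49117080 counts, so that 3 counts equal between 0.0611 and 0.0746 per 1e6 unscaled counts, far below every member. CPM values are counts scaled per 1e6 of a library after TMM normalization. Hepatocyte markers (Alb, Ttr, Apoa1, Tat, Cps1 and Hnf4a) were abundant, summing to between 101950 and 139815 CPM in WT and between 61041 and 98559 CPM in HRD1Alb libraries. Of the other cell types, 1 of 3 neutrophil, 2 of 4 lymphocyte, 1 of 5 sinusoidal endothelial, 0 of 5 cholangiocyte and 0 of 4 red blood cell markers lay above WT when fasted. When refed these counts were 2, 3, 2, 2 and 1, and Hba-a1 and Hba-a2 had 0 counts in every library. Below WT lay, in the same order, 0, 0, 1, 4 and 1 when fasted and 0, 0, 0, 0 and 1 when refed. Of all tested genes, 30.6% lay above and 34.2% below WT when fasted, and 30.7% and 30.1% when refed. Syvn1, the deleted gene, read 111 and 99.8 CPM in WT fasted and 32.6 and 31.5 CPM in HRD1Alb fasted liver. When refed it read 637 and 305 CPM in WT and 453 and 132 CPM in HRD1Alb liver, so the library labelled HRD1Alb refed replicate 1 lay between the 2 WT libraries. Counts over a whole gene do not tell a deleted exon from the rest. The 2 HRD1Alb refed libraries also stood apart from each other: 2129 genes (14.9%) differed at least 2-fold between them, against 94 to 333 genes in the other groups. Their ratio fell with exon length (Spearman's rho -0.531 across 12941 genes, which are not independent replicates). Every value for refed HRD1Alb liver below rests on these 2 libraries. Values with 1 of them left out are given beside some of the genotype differences described below, but not all. Leaving 1 out also changed the call of several differences for which only the size is given. Without 1 library its group holds 1 sample and adds nothing to the estimated spread. The p-values of such fits rest on the spread of the other groups. A fit of only the 4 samples of a contrast called 0 genes of the whole table in refed liver and 0 on refeeding in HRD1Alb liver, the contrasts that hold these libraries.

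**Figure D1:**
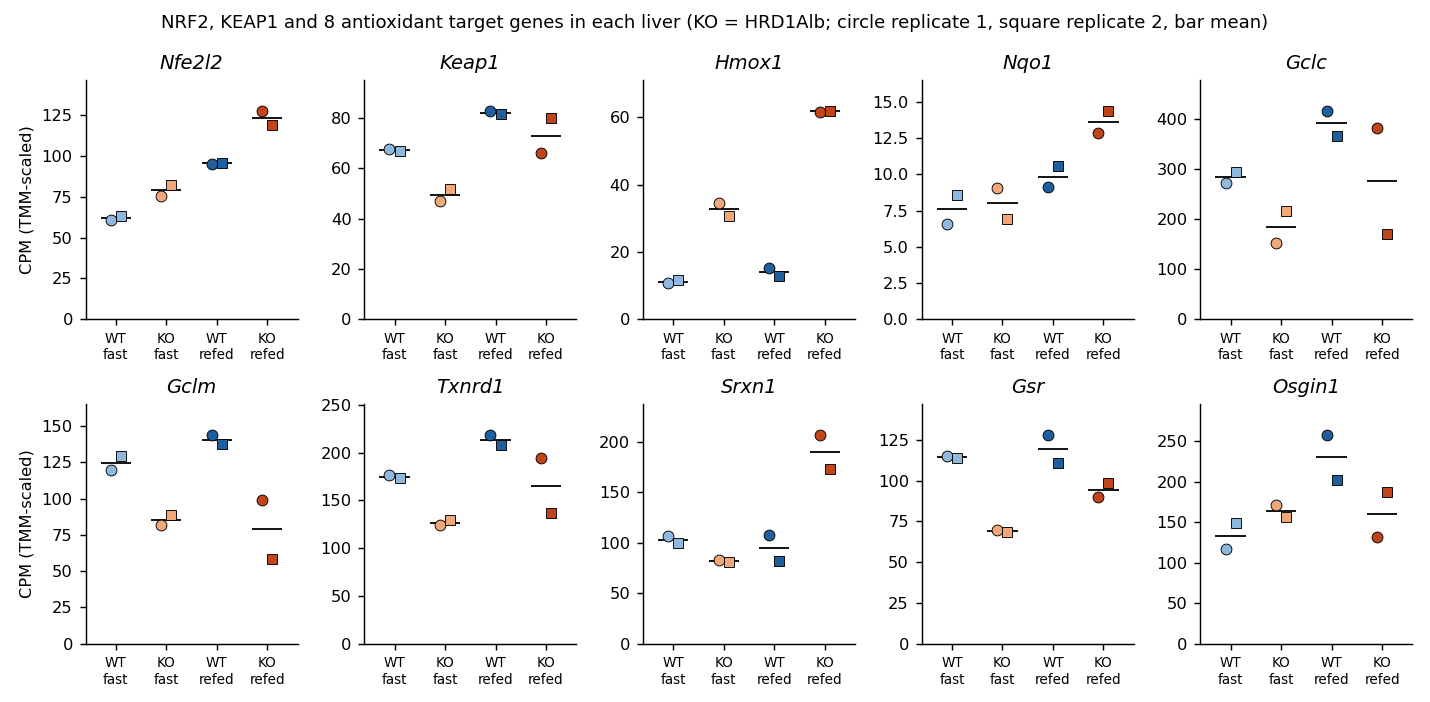
CPM of each of the 10 genes (vertical axis, from 0) in the 4 groups, with circles for replicate 1, squares for replicate 2 and bars for the mean of the 2. Hmox1 sits near 11 CPM in WT fasted and near 62 CPM in HRD1Alb refed liver, while the HRD1Alb points of Gclm and Gsr lie below the WT points in both feeding states.

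Across the 10 genes, Hmox1 was higher in HRD1Alb liver in both feeding states and Srxn1 was higher in refed liver, while no member was lower past the threshold. In fasted liver 1 of 10 members was called higher (adjusted p under 0.05 in edgeR's quasi-likelihood test), where 0.789% of all tested genes were, and 0 were called lower, where 0.342% of all were. At an unadjusted p under 0.05, 3 members were lower in fasted liver and 5 differed in either direction, as did 2606 of 14328 genes. DESeq2 called 1 lower (Gsr), and limma-trend called 0. In refed liver 2 of 10 were called higher, against 6.57% of all genes, and 0 lower, against 4.51%. There 1 member was lower at an unadjusted p under 0.05 and 4 differed in either direction, as did 4728 of 14328 genes. DESeq2 called 1 lower (Gclm), and limma-trend called 0. The median log2 fold change between genotypes over the 10 members was -0.39 in fasted liver, beside -0.024 over all tested genes, and -0.26 in refed liver, beside 0.044.

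The samples of the genotypes did not overlap for 9 of 10 members in fasted liver, 3 higher in HRD1Alb (30.6% of all genes did so) and 6 lower (34.2%). In refed liver they did not overlap for 9 members either, 4 higher (30.7% of all genes) and 5 lower (30.1%). The 3 genes higher when fasted were Nfe2l2, Hmox1 and Osgin1. Those lower in both states were Keap1, Gclm, Txnrd1 and Gsr. Nonoverlap of 2 against 2 samples is common among all genes, and an exact permutation test of 1 gene at this size cannot give a p below 0.333.

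Nfe2l2 (chr2:75675513-75704641, minus strand, GRCm38), the gene of NRF2 itself, read 60.9 and 63.4 CPM in WT fasted, 75.5 and 82.3 in HRD1Alb fasted, 95.1 and 95.8 in WT refed and 127 and 119 CPM in HRD1Alb refed liver. Both HRD1Alb libraries lay above both WT libraries in each feeding state, and every refed library lay above every fasted one. The genotype difference was a log2 fold change of 0.34 ± 0.15 (SE) in fasted and 0.37 ± 0.15 in refed liver, about 1.27-fold and 1.29-fold, and did not pass the test (edgeR adjusted p = 0.269 and 0.13). Under all 17 alternatives both differences kept their direction, between 0.28 and 0.41 in fasted and between 0.29 and 0.41 in refed liver. Their calls did change. In the fit of only the samples of the contrast, the fasted difference passed and the refed one did not. Both calls also changed without either HRD1Alb refed library, where that group holds 1 sample. Refeeding raised Nfe2l2 1.56-fold in HRD1Alb liver (log2 fold change 0.64 ± 0.15, edgeR adjusted p = 0.0376), and in WT liver its log2 fold change was 0.62 ± 0.15 (edgeR adjusted p = 0.084). The rise in HRD1Alb liver no longer passed without any 1 of the 6 libraries other than the HRD1Alb refed pair (edgeR adjusted p between 0.0834 and 0.263), with the replicate block or with no filter on low counts. The 2 refeeding differences were nearly equal, with an interaction of 0.02 ± 0.20 on the log2 scale.

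Keap1, which encodes the sensor that holds NRF2 back, read 67.7 and 66.7 CPM in WT fasted, 47 and 51.9 in HRD1Alb fasted, 82.7 and 81.5 in WT refed and 66.1 and 79.8 CPM in HRD1Alb refed liver. The HRD1Alb values lay below the WT values in each state, by a wide margin when fasted and by a narrow one for replicate 2 when refed. The log2 fold change between genotypes was -0.44 ± 0.16 in fasted liver (edgeR adjusted p = 0.205) and -0.17 ± 0.16 in refed liver (0.46), where it was -0.048 without HRD1Alb refed replicate 1 and -0.32 without replicate 2. The fasted difference passed without HRD1Alb refed replicate 1 (edgeR adjusted p = 0.0112) or replicate 2 (0.0115). Refeeding gave 0.56 ± 0.16 in HRD1Alb (edgeR adjusted p = 0.0665) and 0.29 ± 0.16 in WT liver (0.45).

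Hmox1 (chr8:75093621-75100589, plus strand) encodes heme oxygenase 1, which splits heme into biliverdin, iron and carbon monoxide. It read 10.7 and 11.7 CPM in WT fasted, 34.5 and 30.8 in HRD1Alb fasted, 15.2 and 12.9 in WT refed and 61.6 and 61.8 CPM in HRD1Alb refed liver. All 4 HRD1Alb libraries lay above all 4 WT libraries, and the refed HRD1Alb pair lay above the fasted one. Hmox1 was 2.91-fold higher in HRD1Alb than in WT liver when fasted (log2 fold change 1.54 ± 0.17, edgeR adjusted p = 0.0177) and 4.4-fold higher when refed (2.14 ± 0.17, edgeR adjusted p = 0.00308). Refeeding raised it 1.89-fold in HRD1Alb liver (log2 fold change 0.92 ± 0.16, edgeR adjusted p = 0.0189), beside 0.32 ± 0.16 in WT liver (0.4).

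The size of the Hmox1 difference moved little when any library was left out, from 1.45 to 1.64 in fasted and from 2.01 to 2.26 on the log2 scale in refed liver, but its call did not always hold. In fasted liver the call was lost without any 1 of the 4 fasted or the 2 WT refed libraries (edgeR adjusted p between 0.0585 and 0.209). In refed liver it was lost without WT refed replicate 1 (0.0624) or 2 (0.0804), and it held without either HRD1Alb refed library. The rise with refeeding in HRD1Alb liver was likewise lost without any 1 of the other 6 libraries (edgeR adjusted p between 0.0507 and 0.188). In the fit that corrects for exon length the refed difference was 1.78, and that rise, 0.57, no longer passed (edgeR adjusted p = 0.101). Per transcript length, Hmox1 ranked 9 of the 10 members in WT liver, at 6.4 RPKM (CPM per kilobase of exon) when fasted and 8.02 when refed. It ranked 6 in HRD1Alb fasted liver at 18.6 RPKM and 4 in HRD1Alb refed liver at 35.3 RPKM. There its samples overlapped those of the gene ranked next, Txnrd1 when fasted and Gsr when refed.

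Markers of another cell type moved with Hmox1. Summed over 7 Kupffer cell and macrophage markers (Adgre1, Clec4f, Cd68, Csf1r, Marco, Cd5l and Lyz2), the level was 108 and 99.6 CPM in WT fasted, 338 and 249 in HRD1Alb fasted, 111 and 112 in WT refed and 253 and 505 CPM in HRD1Alb refed liver. All 7 markers were above WT in every HRD1Alb library, in both states, and none was at 0. The pair of HRD1Alb refed libraries had nearly equal Hmox1 and marker sums of 253 and 505 CPM. The single markers differed unequally within this pair. Their log2 ratio of replicate 2 over replicate 1 was 0.27 for Adgre1, 0.31 for Cd68, 0.52 for Lyz2 and 0.62 for Csf1r. It was 1.18 for Clec4f, 1.23 for Cd5l and 1.49 for Marco. The 5 stellate cell and fibroblast markers were likewise above WT in both states, summing to 145 and 298 CPM in WT fasted, 374 and 354 in HRD1Alb fasted, 139 and 173 in WT refed and 423 and 308 CPM in HRD1Alb refed liver. In bulk liver, more cells of a type and more RNA per cell cannot be told apart, and the part of these cells in the Hmox1 difference was not tested.

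**Figure D2:**
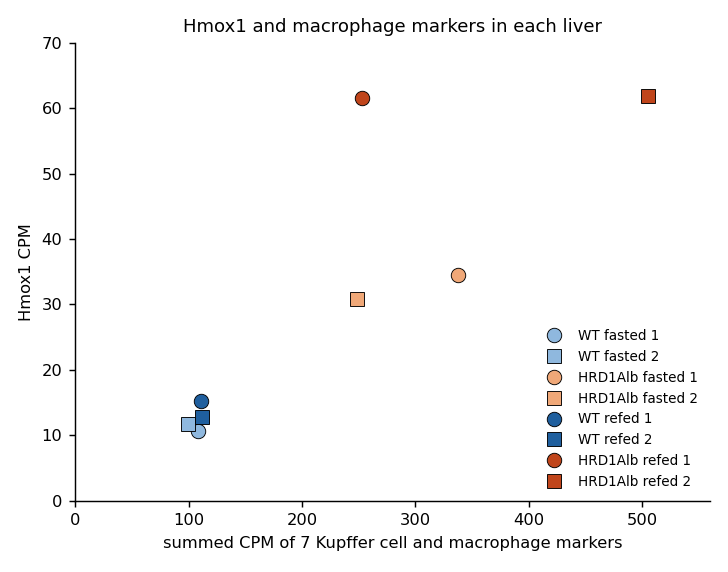
Hmox1 CPM (vertical axis) against the summed CPM of 7 Kupffer cell and macrophage markers (horizontal axis) in the 8 libraries, coloured by group, circles for replicate 1 and squares for replicate 2. The 4 WT libraries sit together between 99.6 and 112 CPM of markers. The HRD1Alb refed pair differs in the marker sum, 253 and 505 CPM, at nearly the same Hmox1 level, and its single markers differ by unequal amounts.

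Nqo1 encodes NAD(P)H quinone dehydrogenase 1, often used as a reporter of NRF2 activity. It was the lowest member in every group, at 6.58 and 8.56 CPM in WT fasted, 9.05 and 6.94 in HRD1Alb fasted, 9.09 and 10.6 in WT refed and 12.8 and 14.4 CPM in HRD1Alb refed liver. The genotypes overlapped when fasted and did not when refed. Neither difference passed the test: the log2 fold change was 0.08 ± 0.22 in fasted (edgeR adjusted p = 0.9) and 0.47 ± 0.22 in refed liver (0.185). Under the alternatives the fasted value lay between -0.13 and 0.31, with its sign changed without WT fasted replicate 1 or HRD1Alb fasted replicate 1, and the refed one between 0.070 (with the exon length offset) and 0.57.

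Gclc and Gclm encode the catalytic and the modifier subunit of glutamate-cysteine ligase, the rate-limiting enzyme of glutathione synthesis. Gclc read 273 and 295 CPM in WT fasted, 153 and 217 in HRD1Alb fasted, 417 and 367 in WT refed and 384 and 170 CPM in HRD1Alb refed liver. The HRD1Alb values lay below WT when fasted, and when refed replicate 1 lay within the WT range and replicate 2 far below it. Gclm read 120 and 129 CPM in WT fasted, 81.8 and 88.6 in HRD1Alb fasted, 144 and 138 in WT refed and 99 and 58.7 CPM in HRD1Alb refed liver. Every HRD1Alb value of Gclm lay below every WT value.

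For Gclc the log2 fold change was -0.62 ± 0.37 in fasted (edgeR adjusted p = 0.43) and -0.50 ± 0.37 in refed liver (0.353). The fasted difference of Gclc passed without HRD1Alb refed replicate 1 (edgeR adjusted p = 0.0338) or 2 (0.0348). Its refed difference rested on 1 library, with -1.21 without HRD1Alb refed replicate 1 and -0.036 without replicate 2. For Gclm it was -0.55 ± 0.24 in fasted (edgeR adjusted p = 0.295, and 0.00673 or 0.00703 without either HRD1Alb refed library) and -0.84 ± 0.25 in refed liver (0.069). In refed liver the Gclm difference was -1.27 without HRD1Alb refed replicate 1 and -0.51 without replicate 2. It passed in the fit with an exon length offset (-0.74, edgeR adjusted p = 0.0253). The 2 subunits' log2 ratio of HRD1Alb refed replicate 2 over replicate 1 was -1.17 for Gclc and -0.75 for Gclm, the lowest among the 10 members. Of 6 hepatocyte markers, 4 lay below WT in fasted and 3 in refed HRD1Alb liver, where 34.2% and 30.1% of all tested genes did. Within the refed HRD1Alb pair these markers were split. Alb, Ttr and Apoa1 were higher in replicate 2. Cps1, Tat and Hnf4a were lower there, as Gclc and Gclm were. The sum of the 6 markers, most of it Alb, was 61041 CPM in replicate 1 and 98559 CPM in replicate 2. The part of these markers in the glutathione genes was not tested.

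Gsr (chr8:33652523-33698163, plus strand) encodes glutathione reductase, which regenerates glutathione from its oxidized form. It read 115 and 114 CPM in WT fasted, 69.9 and 68.4 in HRD1Alb fasted, 128 and 111 in WT refed and 90.3 and 98.4 CPM in HRD1Alb refed liver. All 4 HRD1Alb libraries lay below all 4 WT libraries. In fasted liver this was a 1.66-fold lower level (log2 fold change -0.73 ± 0.15), which fell short of the threshold in edgeR (adjusted p = 0.0705) and passed in DESeq2 (0.000836), in the fit with an exon length offset (0.0275) and without either HRD1Alb refed library (0.00295 and 0.00304). In refed liver the log2 fold change was -0.34 ± 0.15 (edgeR adjusted p = 0.166), which passed with the exon length offset (-0.54, 0.0301). It was -0.41 without HRD1Alb refed replicate 2.

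Txnrd1 encodes the cytosolic thioredoxin reductase. It read 176 and 173 CPM in WT fasted, 124 and 129 in HRD1Alb fasted, 218 and 208 in WT refed and 194 and 136 CPM in HRD1Alb refed liver, so the HRD1Alb values lay below WT in each state. The log2 fold change was -0.46 ± 0.19 in fasted (edgeR adjusted p = 0.266) and -0.37 ± 0.19 in refed liver (0.221). The fasted difference passed without HRD1Alb refed replicate 1 (edgeR adjusted p = 0.00985) or 2 (0.0104). The refed one was -0.65 without HRD1Alb refed replicate 1 and -0.14 without replicate 2.

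Srxn1 (chr2:152105516-152111376, plus strand) encodes sulfiredoxin, which restores peroxiredoxins that peroxide has inactivated, and it showed another pattern. It read 107 and 99.3 CPM in WT fasted, 82.8 and 80.9 in HRD1Alb fasted, 108 and 81.6 in WT refed and 206 and 173 CPM in HRD1Alb refed liver. The HRD1Alb libraries lay below both WT libraries when fasted and far above both when refed. In refed liver Srxn1 was 2-fold higher in HRD1Alb than in WT (log2 fold change 1.0 ± 0.19, edgeR adjusted p = 0.0251), while in fasted liver the log2 fold change was -0.33 ± 0.19 (0.407). Refeeding raised it 2.32-fold in HRD1Alb liver (log2 fold change 1.21 ± 0.19, edgeR adjusted p = 0.0146), beside -0.12 ± 0.19 in WT liver (0.839), and that rise was lost without HRD1Alb fasted replicate 1 (0.129) or 2 (0.148). The genotype difference in refed liver held without either HRD1Alb refed library, at 0.86 (without replicate 1) and 1.12 (without replicate 2), and no longer passed without any 1 of the other 6 libraries (edgeR adjusted p between 0.052 and 0.201).

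Osgin1 encodes a growth inhibitor induced by oxidative stress. It read 117 and 150 CPM in WT fasted, 171 and 156 in HRD1Alb fasted, 257 and 203 in WT refed and 132 and 188 CPM in HRD1Alb refed liver. The HRD1Alb pair lay above WT when fasted and below it when refed. The log2 fold change was 0.30 ± 0.23 in fasted (edgeR adjusted p = 0.566) and -0.52 ± 0.23 in refed liver (0.165). The refed difference passed with the exon length offset (-0.75, edgeR adjusted p = 0.0326). It was -0.80 without HRD1Alb refed replicate 2 and -0.30 without replicate 1. Refeeding gave 0.79 ± 0.23 in WT liver (edgeR adjusted p = 0.154) and -0.03 ± 0.23 in HRD1Alb liver (0.932).

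**Figure D3:**
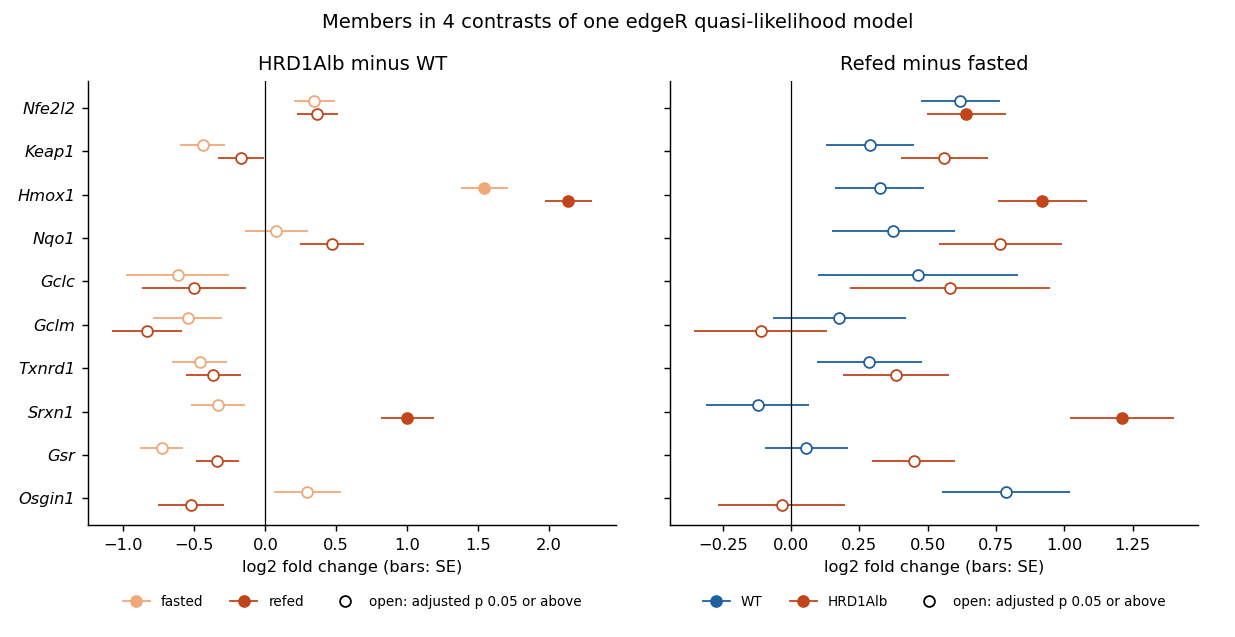
Log2 fold changes of the 10 genes with their standard errors, HRD1Alb minus WT on the left (pale for fasted, dark for refed) and refed minus fasted on the right (blue for WT, red for HRD1Alb), with filled points for an edgeR adjusted p under 0.05. Hmox1 is the only member filled in both genotype contrasts, at 1.54 and 2.14, and Srxn1 is filled when refed, at 1.0.

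Refeeding within each genotype was the other axis of the design. In WT liver 0 of 10 members were called higher in edgeR's quasi-likelihood test (1.09% of all tested genes were) and 0 lower (1.32%). At an unadjusted p under 0.05, 2 were higher (Nfe2l2 and Osgin1) and 0 lower, where 2314 of 14328 genes passed in either direction. DESeq2 called 1 (Nfe2l2, higher) and limma-trend called 0. In HRD1Alb liver 3 of 10 were called higher (5.14% of all genes), Nfe2l2, Hmox1 and Srxn1, and 0 lower (4.82%). At an unadjusted p under 0.05, 0 were lower and 6 differed in either direction, as did 4468 of 14328 genes. DESeq2 and limma-trend also called 0 lower. The median log2 fold change on refeeding over the members was 0.31 in WT and 0.57 in HRD1Alb liver, beside 0.0013 and 0.022 over all tested genes. The members' median on refeeding in HRD1Alb liver was 0.55 without HRD1Alb refed replicate 1 and 0.65 without replicate 2. Over all tested genes it was -0.052 and 0.016.

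Whether a genotype difference itself differed between the feeding states was tested by the interaction. No gene of the whole table passed after adjustment in edgeR (smallest adjusted p = 0.134), and 8.24% of all genes had an unadjusted p under 0.05. By that measure 3 of 10 members did: Srxn1 with 1.33 ± 0.27 on the log2 scale (edgeR adjusted p = 0.578), Hmox1 with 0.60 ± 0.23 (edgeR adjusted p = 0.598) and Osgin1 with -0.82 ± 0.33 (edgeR adjusted p = 0.599). DESeq2 called 1 member, Srxn1 (adjusted p = 0.00499), and limma-trend called 0. The Srxn1 interaction was 1.20 without HRD1Alb refed replicate 1 and 1.46 without replicate 2. Without replicate 1 that of Hmox1 was 0.59 and that of Gclm -0.72.

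The order of the members per transcript length also changed. Gclc led in WT fasted liver at 75.5 ± 4.1 RPKM (SD, n = 2), followed by Osgin1 at 49.9 ± 8.59 and Gsr at 41.7 ± 0.34. In WT refed liver Gclc, Osgin1 and Gsr again led, at 104, 86 and 43.3 RPKM. Osgin1 led in HRD1Alb fasted liver at 61.2 ± 3.85 RPKM, ahead of Gclc at 49.2 ± 12.2. In HRD1Alb refed liver Gclc at 73.5 ± 40.1, Srxn1 at 67.2 ± 8.44 and Osgin1 at 59.8 ± 14.6 RPKM were neighbours, and the samples of Gclc overlapped those of Srxn1 and the samples of Srxn1 those of Osgin1. Nqo1 came last in all 4 groups, at between 4.88 and 8.75 RPKM.

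Among 11927 tested genes with a mean of at least 1 CPM, the profile over the 8 libraries most like that of Hmox1 was that of Sema3b, with a root-mean-square distance of 0.195 in log2 CPM, then Basp1 (0.196) and C3ar1 (0.197). Hmox1 had a range of 2.46 between its group means on that scale. Nearest to Srxn1, with a range of 1.21, were P4ha1 (0.126), Hspbap1 (0.129) and Chchd4 (0.149).

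A wider list of 68 NRF2 pathway genes in 9 roles was read in the same way, of which 65 were tested. In fasted liver 0 were called higher and 3 lower in edgeR (Gstp1, Me1 and Ugdh), 4.62% of the 65, where 0.789% of all tested genes were called higher and 0.342% lower. At an unadjusted p under 0.05, 7 were higher and 10 lower, where 2606 of 14328 genes passed in either direction. Of the 7, DESeq2 called 4 (Slc7a11, Gsta1, Gstm2 and Gstm3) and limma-trend 1 (Gstm3). Of the 10, DESeq2 called Cat, Idh1, Mgst1 and Sqstm1 beside Gstp1, Me1 and Ugdh, and limma-trend only Gstp1, Me1 and Ugdh. In refed liver 7 were called higher (Cbr3, Chac1, Gsta1, Gstm2, Gstm3, Slc7a11 and Sod3) and 3 lower (Cat, Idh1 and Mafg), which is 10.8% and 4.62% of the 65, beside 6.57% and 4.51% of all genes. The list's median log2 fold change between genotypes was -0.17 in fasted and 0.26 in refed liver. The refed median rested on the HRD1Alb refed libraries, at 0.50 without replicate 1, -0.092 without replicate 2 and 0.046 with the exon length offset.

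All 10 refed calls were lost without WT refed replicate 1 or 2 and held without either HRD1Alb refed library. Those of Cbr3, Chac1, Gsta1, Gstm2, Slc7a11, Mafg and Idh1 were also lost without any 1 of the 4 fasted libraries, and those of Sod3 and Cat without either HRD1Alb fasted library. The exon length offset ended the call of Chac1, and the replicate block and both other filters on low counts that of Idh1. Glutathione transferases, which attach glutathione to electrophiles, held 3 of the 7 rises in refed liver. Gstm3 read 9.4 and 5.91 CPM in WT fasted, 57.1 and 26.2 in HRD1Alb fasted, 21.7 and 18 in WT refed and 115 and 186 CPM in HRD1Alb refed liver. All 4 HRD1Alb libraries lay above all WT libraries, with a log2 fold change of 2.44 ± 0.44 in fasted (edgeR adjusted p = 0.0538) and 2.92 ± 0.44 in refed liver (0.0151). The fasted difference of Gstm3 passed without HRD1Alb refed replicate 1 (edgeR adjusted p = 0.0413) or 2 (0.0409), with the exon length offset (0.0275), with no filter on low counts (0.0364), without the robust prior, in DESeq2 and in limma-trend. Gstm2 gave 1.46 ± 0.31 in refed liver (edgeR adjusted p = 0.0329). Gstp1 moved the other way, at 520 and 448 CPM in WT fasted and 106 and 123 CPM in HRD1Alb fasted liver, a log2 fold change of -2.08 ± 0.34 (edgeR adjusted p = 0.0464, and 0.0647 with the replicate number as a block). Members of the Gsta, Gstm and Gstp families have near-identical copies among which counting can split reads, so their levels are uncertain.

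Other roles had few calls. Slc7a11, the cystine carrier that feeds glutathione synthesis, had 0 counts in all 4 WT libraries, 22 and 9 in HRD1Alb fasted and 185 and 25 in HRD1Alb refed liver. Against a floor of 3 counts over each WT group this is at least 7.9-fold higher when fasted and at least 52.5-fold higher when refed, and the list's medians were the same with the gene at these bounds. The refed bound rests on HRD1Alb refed replicate 1, the library whose Syvn1 level lay within the WT range, and is at least 14.4-fold from replicate 2 alone. Chac1, which degrades glutathione, read 0.469 and 0.683 CPM in WT refed and 2.44 and 1.67 CPM in HRD1Alb refed liver (log2 fold change 1.83 ± 0.43, edgeR adjusted p = 0.0409). Cat, the peroxisomal catalase, read 4167 and 4134 CPM in WT refed and 2094 and 1820 CPM in HRD1Alb refed liver, and its log2 fold change was -1.08 ± 0.17 (edgeR adjusted p = 0.0151). Sod3, the extracellular superoxide dismutase, was higher in refed HRD1Alb liver by 1.19 ± 0.25 (edgeR adjusted p = 0.0309). In the heme and iron role the smallest adjusted p was that of Abcb6, a mitochondrial porphyrin transporter, which read 82 and 82.2 CPM in WT refed and 51.5 and 63.4 CPM in HRD1Alb refed liver. Its log2 fold change of -0.52 ± 0.17 did not pass (edgeR adjusted p = 0.0842), but did in DESeq2 (0.0448). It was -0.38 without HRD1Alb refed replicate 1 and -0.68 without replicate 2.

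Abcc4, an exporter of conjugates, read 2.86 and 2.49 CPM in WT refed and 27.8 and 4.8 CPM in HRD1Alb refed liver. Its log2 fold change of 2.61 ± 0.77 did not pass (edgeR adjusted p = 0.0709), and it rested on replicate 1, at 0.83 without it and 3.37 without replicate 2. The exon length offset (edgeR adjusted p = 0.0414) and DESeq2 (0.00167) gave a call. Txn2, the mitochondrial thioredoxin, read 230 and 228 CPM in WT refed and 277 and 366 CPM in HRD1Alb refed liver. The log2 fold change of Txn2 was 0.49 ± 0.19 (edgeR adjusted p = 0.12), with 0.67 without HRD1Alb refed replicate 1 and 0.27 without replicate 2.

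NADPH supply, carbonyl reduction and conjugation held further calls. Cbr3, a carbonyl reductase, read 0.519 and 0.656 CPM in WT refed and 1.54 and 2.96 CPM in HRD1Alb refed liver (log2 fold change 1.93 ± 0.40, edgeR adjusted p = 0.0309). Idh1, the cytosolic NADP-dependent isocitrate dehydrogenase, read 454 and 480 CPM in WT refed and 293 and 294 CPM in HRD1Alb refed liver (-0.67 ± 0.17, edgeR adjusted p = 0.0462). Me1, the cytosolic malic enzyme, read 126 and 106 CPM in WT fasted and 47.2 and 52.2 CPM in HRD1Alb fasted liver (log2 fold change -1.22 ± 0.17, edgeR adjusted p = 0.0335). Ugdh, which makes UDP-glucuronic acid, read 194 and 148 CPM in WT fasted and 71 and 67.6 CPM in HRD1Alb fasted liver (-1.30 ± 0.22, edgeR adjusted p = 0.0466). It rose on refeeding in HRD1Alb liver, to 294 and 234 CPM. The calls of Gstp1, Me1 and Ugdh in fasted liver were lost without any 1 of the 4 fasted or the 2 WT refed libraries.

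The partners and repressor of NRF2 gave 1 call between genotypes. Mafg, a small MAF protein that pairs with NRF2, read 49.4 and 48.8 CPM in WT refed and 29 and 31.6 CPM in HRD1Alb refed liver, and its log2 fold change was -0.69 ± 0.15 (edgeR adjusted p = 0.0328). Bach1, the repressor of Hmox1, read 40 and 36.2 CPM in WT refed and 21.7 and 8.53 CPM in HRD1Alb refed liver. Its HRD1Alb refed values lay below WT and differed widely from each other, and its log2 fold change of -1.33 ± 0.39 did not pass (edgeR adjusted p = 0.0672). Bach1 passed with the replicate number as a block (-1.42, edgeR adjusted p = 0.0465), with the exon length offset (-1.27, 0.0308) and in DESeq2 (-1.35, 0.0056). Its difference was -2.17 without HRD1Alb refed replicate 1 and -0.82 without replicate 2. Mafk, a small MAF protein, gave 0.86 ± 0.25 in refed liver (edgeR adjusted p = 0.0699), which passed in DESeq2 (0.0189). It was 0.48 without HRD1Alb refed replicate 1. Maff, another small MAF protein, read 2.19 and 1.85 CPM in WT fasted and 4.63 and 4.18 CPM in HRD1Alb fasted liver, with a log2 fold change of 1.12 ± 0.36 (edgeR adjusted p = 0.167). That of Maff passed with only the 4 fasted samples (edgeR adjusted p = 0.0213) and without HRD1Alb refed replicate 1 (0.0414) or 2 (0.0426).

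**Figure D4:**
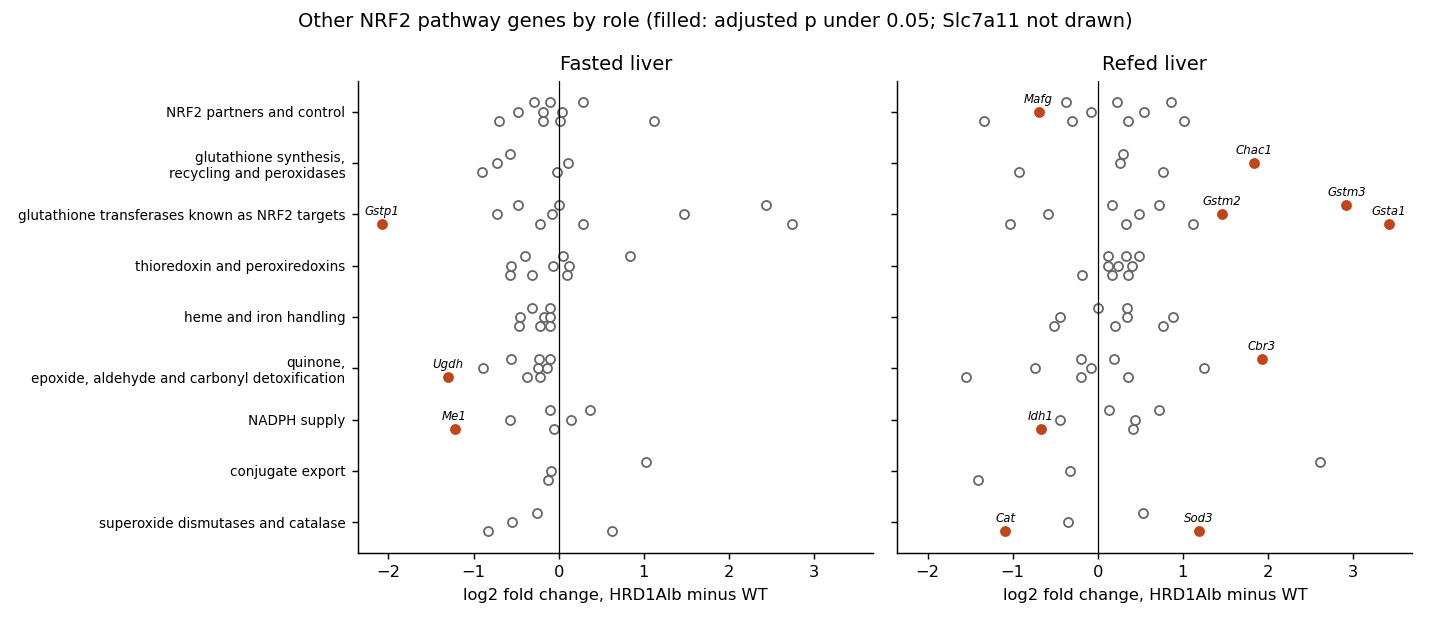
Log2 fold change, HRD1Alb minus WT, of the other NRF2 pathway genes in 9 roles in fasted (left) and refed liver (right), 1 point a gene, filled where the edgeR adjusted p was under 0.05. Filled points lie left of 0 in fasted liver (Gstp1, Ugdh and Me1) and on both sides in refed liver, and Slc7a11, at 0 counts in WT, is not drawn.

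On refeeding, Gstm4 was called higher and Chac1 and Txnip lower in WT liver, 1.54% and 3.08% of the 65 beside 1.09% and 1.32% of all genes. The WT calls of Gstm4 and Chac1 were lost without any 1 of the 6 libraries other than the HRD1Alb refed pair, and that of Txnip without any 1 of these except WT fasted replicate 1. That of Gstm4 was also lost with the replicate block and with the exon length offset. In HRD1Alb liver 6 genes were called higher (Cbr3, Gstm3, Gstm4, Pgd, Sqstm1 and Ugdh) and 2 lower (Abcc3 and Txnip), 9.23% and 3.08% beside 5.14% and 4.82% of all genes. Those of Cbr3, Gstm3, Pgd, Sqstm1 and Abcc3 were lost without any 1 of the same 6 libraries (Gstm3 also without HRD1Alb refed replicate 2 and with the exon length offset), those of Gstm4 and Ugdh without either HRD1Alb fasted library and that of Txnip without HRD1Alb fasted replicate 1. Txnip, the inhibitor of thioredoxin, read 111 and 214 CPM in WT fasted, 331 and 252 in HRD1Alb fasted, 25.1 and 24.4 in WT refed and 31.5 and 30.7 CPM in HRD1Alb refed liver. All refed libraries lay below all fasted ones in both genotypes, with log2 fold changes of -2.72 ± 0.32 (edgeR adjusted p = 0.0173) in WT and -3.23 ± 0.33 (0.0047) in HRD1Alb liver. Both refeeding comparisons have samples of their own, while each shares its refed and its fasted samples with the genotype comparisons.

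Several genes of the wider list, Chac1 and Slc7a11 among them, are also known targets of ATF4, the factor of the integrated stress response. Ddit3, which ATF4 induces, read 6.66 and 5.62 CPM in WT fasted, 15.5 and 14.8 in HRD1Alb fasted, 16.1 and 11.3 in WT refed and 251 and 241 CPM in HRD1Alb refed liver. Its log2 fold change between genotypes was 1.30 ± 0.21 in fasted (edgeR adjusted p = 0.0432) and 4.17 ± 0.23 in refed liver (0.00148). The fasted call of Ddit3 was lost without any 1 of the 4 fasted or the 2 WT refed libraries, while the refed one held without each of the 8. The targets Trib3 and Asns were also higher in refed HRD1Alb liver, by 4.47 ± 0.53 (edgeR adjusted p = 0.00952) and 3.47 ± 0.43 (0.011), while Atf4 itself, at 0.69 ± 0.21, did not pass (0.0722). The refed calls of Trib3 and Asns were lost without either WT refed library. Atf4 passed in DESeq2 (adjusted p = 0.0256), and its difference was 0.75 without HRD1Alb refed replicate 1. Sesn2, another gene of this response, read 3.88 and 2.89 CPM in WT refed and 13.4 and 2.81 CPM in HRD1Alb refed liver, so only replicate 1 stood apart. The part of ATF4 in the values of Hmox1, Srxn1 and the wider list was not tested.

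**Figure D5:**
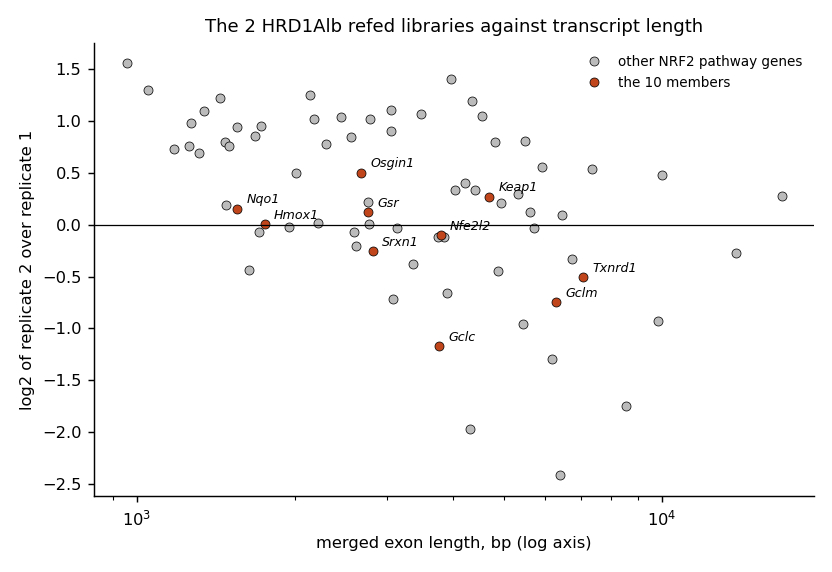
Log2 ratio of HRD1Alb refed replicate 2 over replicate 1 (vertical axis) against merged exon length in bp (horizontal log axis) for the 10 members in red and the other NRF2 pathway genes in grey. Gclc, Gclm and Txnrd1 lie lowest among the members, at -1.17, -0.75 and -0.50, and Hmox1 lies at 0.0051.

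The place of each member along the difference between the HRD1Alb refed replicates was read directly. Hmox1, with 1751 bp of merged exons, had a log2 ratio of replicate 2 over replicate 1 of 0.0051, and Srxn1, with 2820 bp, had -0.26. Txnrd1 (7086 bp) and Gclm (6291 bp) had the longest exons and ratios of -0.50 and -0.75. The other members did not follow length. Keap1 (4693 bp) had 0.27, Nfe2l2 (3796 bp) -0.10 and Gclc (3766 bp) -1.17, the lowest of all. Gsr (2754 bp) had 0.12, Osgin1 (2674 bp) 0.50 and Nqo1 (1553 bp) 0.16. The exon length offset moved the refed genotype difference of Hmox1 from 2.14 to 1.78 and that of Srxn1 from 1.0 to 0.82, and both still passed (edgeR adjusted p = 0.00578 and 0.033).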

How the data were processed

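Total hepatic RNA was sequenced on an Illumina NextSeq instrument, 1 lane a sample. The deposited values are whole-number read counts per gene symbol, 1 file a sample, without normalization. For the counting, the authors' methods name ERANGE, whereas the submitters' processing notes name cutadapt, STAR, HTSeq, DESeq2 and mm10 without roles, so the counter is uncertain. Whether counting used strand is not given in the sources used here. Groups came from the sample titles.

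The model was fitted with edgeR 4.0.16 under R 4.3.3: filterByExpr (minimum count 10, minimum total 15), TMM scaling, and 1 robust quasi-likelihood model of 4 groups. Adjusted p-values follow Benjamini and Hochberg (BH) over 14328 genes, and SE is the log2 fold change divided by the root of F. Levels are TMM-scaled CPM, and RPKM uses merged exon lengths of GENCODE M21 on GRCm38. Alternatives used DESeq2 1.42.0, limma 3.58.1, other filters and scaling, a replicate block, an exon length offset (90.3% of genes) and each library left out. The code was tested on simulated data. Same-numbered samples' deviations correlated at between 0.0161 and 0.179, and the numbers were not taken as pairs.

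Named were all 10 members, from each role of the wider list the gene with the smallest adjusted p in a genotype contrast and at most 3 of the next, and genes called on refeeding. Cell type markers were listed for 8 types. The members and lists were chosen with earlier results of these data known.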

Additional observations from a re-analysis of the deposited data

How the results depend on the processing

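Each comparison has 2 samples a group. Over the 10 members and 5 contrasts, no alternative reversed a called value. Of 840 member values under alternatives, 731 kept their direction and side of the threshold, 56 passed it newly, 36 no longer passed and 17 uncalled values changed sign. With only the 4 samples of a contrast, 2 members were called higher and 4 lower in fasted liver, 0 higher in refed liver, 2 higher on refeeding in WT and 0 higher on refeeding in HRD1Alb liver. DESeq2 called 1 lower in fasted, 1 lower in refed liver, 1 higher on refeeding in WT, 6 higher on refeeding in HRD1Alb liver and 1 in the interaction. The exon length offset called 1 lower in fasted liver, 3 lower in refed liver and 1 higher on refeeding in WT. Leaving out each library in turn, the calls ranged from 0 to 2 higher and 0 to 5 lower in fasted liver, 0 to 3 higher and 0 to 3 lower in refed liver, 0 to 2 higher on refeeding in WT, 0 to 6 higher and 0 to 1 lower on refeeding in HRD1Alb liver, and 0 to 3 in the interaction. The 5 lower calls in fasted liver came without either HRD1Alb refed library. These libraries hold no fasted sample. They enter the fasted test only through the shared spread, the scaling, the filter and the adjustment, whose parts were not tested apart. No shares over all genes stand beside the counts under alternatives, so these counts show nothing particular to the members. The replicate block (adjusted p = 0.0514) removed the call of Nfe2l2 on refeeding in HRD1Alb liver, leaving 2 members called there, and changed no other call of the members. Among the wider list's genes named above it also ended the calls of Gstp1 in fasted liver, Idh1 in refed liver and Gstm4 on refeeding in WT liver, and gave one for Bach1 in refed liver.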
